A study of Mus musculus with 22 samples.

Results

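Krt7, Krt8, Krt18, Krt19, Krt20 and Krt23 are keratin genes of simple epithelia, and their transcripts were followed through 6 sorted cell types of the mouse colon crypt. The 6 genes were chosen by name, with earlier results of these data known, out of 24421 genes in the count files. All 6 passed the filter on low counts and were tested in every comparison. Their means over the 22 libraries ran from 379 normalized counts upwards, whereas the highest mean among the other 46 keratin genes was 203. A normalized count here is a read count divided by the library's TMM-scaled total and multiplied by the mean of those totals.

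Keratins are the intermediate filament proteins of epithelial cells. A filament forms only where an acidic type I chain pairs with a basic type II chain, so an epithelial cell must make both. Krt7 and Krt8 are type II, and Krt18, Krt19, Krt20 and Krt23 are type I. In the gut, Krt8 is the main type II chain and Krt18 and Krt19 are its usual partners. Krt20 is best known as a keratin of differentiated cells at the crypt mouth and luminal surface. Krt7 is more familiar from ducts and urothelium, and Krt23 is a little studied type I keratin.

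RNA came from untreated wild-type male C57BL/6N mice, 5 to 7 weeks old, and all libraries share this genotype and treatment. Cells released from the whole colon were sorted as live, Epcam+, Cd31- and Cd45- cells and separated by Cd44, Cd24 and Ckit. The 6 gates were Stem (Cd44highest, Cd24low, Ckit-; 3 libraries), absorptive progenitors or AbsPro (Cd44med/hi, Cd24low, Ckit-; 3), secretory progenitors and deep crypt secretory and goblet cells or SecPDG (Cd44hi, Cd24med, Ckitmed; 4), Tuft (Ckit+, Cd24hi; 5), Enterocyte (Cd44low/-, Cd24-; 5) and enteroendocrine or EEC (Cd44low/-, Cd24+; 2). Each Stem and AbsPro library held cells of a single mouse, whereas libraries of the other types pooled several mice. A sorted population is a mixture defined by surface proteins, and in such bulk RNA fewer cells of a type cannot be told apart from less RNA per cell.

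Counts on genes ran from 15314543 to 22462518 per library in Stem, AbsPro and SecPDG, from 9930648 to 20892532 in Tuft and from 5950619 to 12966128 in Enterocyte libraries. EEC 2 held 13132315 counts, but EEC 1 stood apart with 4122122. Of all its listed entries 91.6% were of the kinds that name no gene, and 74.3% were reads on no feature. Olfactory and vomeronasal receptor genes, taken as not expressed in gut, gave a background of at most 0.0281 CPM (counts scaled to library totals) per kilobase in Stem, AbsPro and SecPDG, but up to 0.703 in Enterocyte and 1.26 in EEC libraries. That background amounted to 5.06% to 14.8% of the Krt23 count in Enterocyte libraries and up to 14.3% in EEC, up to 5.59% of Krt20 in Tuft and up to 4.55% of Krt7 in Enterocyte libraries. By another measure, Krt23 had 57 counts in EEC 1, where Krt84 had 213 and Krt26 had 163, though others such as Krt40 (54) were lower. Krt23 in that library thus lay among the counts of other keratins. For Krt8, Krt18 and Krt19 it was at most 0.374% in any library.

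Marker sums, in normalized counts, were highest in the gate of the same name for tuft (27600.3 to 74044 in Tuft, 64.0 to 111 in Stem) and enteroendocrine markers (597923 and 1719110.2 in EEC, 587 to 1039.6 in Stem). Stem markers had their highest mean in Stem libraries (31267 to 42124), but SecPDG libraries (26181.6 to 33263.4) overlapped these. Enterocyte markers summed to 64215 to 97352 in AbsPro and 40329 to 64189 in Enterocyte libraries, so the progenitor gate held more of them. EEC 2 also carried 92456 of these counts against 5933 in EEC 1. Goblet markers overlapped between Tuft (720518.5 to 1095442) and SecPDG libraries (726271 to 3071719.5). They ran from 236035 to 692594 in Enterocyte, 84344 to 254228 in AbsPro, 19418 to 32563 in Stem and 36713 to 61791.0 in EEC libraries. Immune markers stayed between 403 and 3389, stromal between 8.5 and 2520.1, endothelial between 0 and 1318, squamous between 9.9 and 1929, and mesothelial between 0 and 568. The squamous keratins Krt1, Krt4 and Krt6a and the desmoglein Dsg3 were at 0 in all Stem libraries, as was the tuft marker Rgs13 in Stem and AbsPro. The part of these other cells in the keratin values was not tested.

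On mm10 the type II genes Krt7 (15:101411043-101430313, plus strand) and Krt8 (15:101996698-102004482, minus strand) lie on chromosome 15 together with the type I gene Krt18 (15:102028180-102032027, plus strand). The other type I genes share chromosome 11, with Krt20 at 11:99428403-99438150, Krt23 at 11:99477974-99493137 and Krt19 at 11:100140810-100148665, all on the minus strand. Krt7 overlaps the antisense gene Gm671 and Krt8 the lincRNA Gm36026. Reads were counted without strand, so reads of these partners cannot be told apart from Krt7 and Krt8. The 3 prime ends of the transcripts are shown because the deposited tables also give the use of polyadenylation sites. The windows below, written 5 prime to 3 prime along the transcript, are 30 bases around the hexamer AATAAA or ATTAAA, which is in capitals.
Krt8, chr15:101996717-101996746, minus strand: tgtattttctaaAATAAAgcctcagctggc
Krt18, chr15:102031987-102032016, plus strand: aactgagggaccAATAAAagttgagagctc
Krt19, chr11:100140818-100140847, minus strand: cctcgacttgtcAATAAAactatcctccaa
Krt23, chr11:99477981-99478010, minus strand: agaagtttataaATTAAAgctctactctcc
Krt20, chr11:99428422-99428451, minus strand: tcttcgtctcatAATAAActgcttaaccat
Krt20, chr11:99428718-99428747, minus strand: aagcaaagagcaAATAAAccgctctccttt
Krt20, chr11:99428812-99428841, minus strand: gtaaagggcaagATTAAAcccagcacaatc
Krt20, chr11:99428855-99428884, minus strand: tcaagctgtgtaATTAAAtataaatggttc
In Krt8, Krt18, Krt19 and Krt23 a single hexamer lay in the last 50 bases of the annotated transcript. Either hexamer, searched on the transcript strand alone, occurs there in 50.2% of 58787 protein-coding transcripts. Krt20 had 2 in that stretch, 37 and 21 bases before its end, and 3 more lay 470, 427 and 333 bases before the end. At least 3 hexamers between 600 and 50 bases before the end are found in 4.2% of 50869 protein-coding transcripts of that length, and at least 1 in 34.4%. The other members had none there, and no hexamer was found at the annotated end of Krt7, the gene end given above. The distal shares of Krt7 reported below use a 3 prime UTR that ends upstream of that point. The end of that UTR was not searched for a hexamer. The transcripts searched were those of the annotation of the reference genome.

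Krt8, the main type II chain, was abundant in every cell type. Its 3 Stem libraries held 24879, 26967 and 22300.2 normalized counts (mean 24715 ± 2338, SD, n = 3). AbsPro libraries held 44489.7, 53612 and 43204 (47102 ± 5674, n = 3). SecPDG libraries held 15957, 26495, 17035 and 20933 (20105 ± 4766, n = 4). All AbsPro libraries lay above all Stem and SecPDG libraries, and the latter 2 groups overlapped. In Tuft cells the values were 20264, 17459, 21731, 26264 and 28031 (22749.7 ± 4343, n = 5). Enterocyte libraries gave 24192, 25915, 17837, 54200.4 and 47604 (33949.7 ± 15937, n = 5), and EEC gave 8429.8 and 41336. Enterocyte 4 and 5 stood well above the other Enterocyte libraries, and EEC 2 well above EEC 1, so both groups spanned the Stem level. The order of means was AbsPro, Enterocyte, EEC, Stem, Tuft, SecPDG, with a ratio of highest to lowest of only 2.34. No neighbours in that order differed beyond their spread, and edgeR called none of the 15 pairs of cell types, 2 of which had an unadjusted p under 0.05.

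Krt7, the other type II chain, gave lower counts and was steeper across the types. Stem libraries held 3216, 2767 and 2801 normalized counts (2928 ± 249.8, SD, n = 3), and AbsPro libraries 3147, 3372 and 3572 (3364 ± 213, n = 3). SecPDG held 5773, 9760.1, 7873 and 9070.4 (8119 ± 1748, n = 4). Every SecPDG library was above every Stem and AbsPro library, which overlapped each other. Tuft libraries held 4006, 4128, 2891, 3647 and 6893 (4313 ± 1521, n = 5), with Tuft 5 the highest. In Enterocyte libraries the values were 1005, 1057, 901, 2374 and 2102 (1488 ± 694, n = 5), all below the lowest Stem library. The EEC libraries gave 3901 and 15552. They differed from each other more than any other pair within a type, with EEC 1 inside the Tuft range and EEC 2 above all other libraries. The means ran EEC, SecPDG, Tuft, AbsPro, Stem, Enterocyte, over a 6.54-fold range. No neighbours were called, the closest being Stem above Enterocyte (adjusted p = 0.0338), whose libraries did not overlap.

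Krt18, the classical partner of Krt8, was highest in Tuft cells. Stem libraries held 10832, 9120.0 and 10291 normalized counts (10081 ± 875, SD, n = 3), and AbsPro 10889.6, 10672 and 10829 (10797 ± 112, n = 3). SecPDG libraries held 14169, 25749, 16441 and 20251 (19152 ± 5063, n = 4). The secretory progenitors thus lay above both Stem and AbsPro without overlap, and those 2 overlapped. Tuft libraries held 23920.4, 23687, 26299, 41395 and 41374 (31335 ± 9231, n = 5), with Tuft 4 and 5 above the rest. Enterocyte libraries gave 4688, 3641, 5132, 9285 and 11834 (6916 ± 3488, n = 5), and EEC 8401 and 15668. Tuft and SecPDG values overlapped, as SecPDG 2 exceeded the lowest Tuft libraries, while every Enterocyte library was below both groups. The means fell in the order Tuft, SecPDG, EEC, AbsPro, Stem, Enterocyte, over a 4.53-fold range, and none of the neighbours differed beyond their spread.

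Krt19, a type I keratin that lacks the usual tail domain, ran the other way. Stem libraries held 27304, 29416 and 24352 normalized counts (27024 ± 2544, SD, n = 3), and AbsPro 49180.4, 61375 and 48629.7 (53062 ± 7205, n = 3). SecPDG libraries held 13589, 20261, 17032 and 19049 (17483 ± 2917, n = 4). These 3 types did not overlap, with AbsPro highest and SecPDG lowest. Tuft libraries held 6951, 6945, 6490.1, 5462 and 12861 (7742 ± 2925, n = 5), all below the lowest SecPDG library. Enterocyte libraries gave 23227, 26679, 13981, 57713 and 34739 (31268 ± 16553, n = 5), and EEC 4668 and 33914. Enterocyte values straddled the Stem level, and EEC 1 was below all other libraries while EEC 2 was above all Stem ones. The order of means was AbsPro, Enterocyte, Stem, EEC, SecPDG, Tuft, over a 6.85-fold range. Neighbours were not called, including SecPDG above Tuft (adjusted p = 0.0880).

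Krt20, the keratin of differentiated gut epithelium, had the widest range. Stem libraries held 618, 528 and 342 normalized counts (496 ± 141, SD, n = 3), and AbsPro 3522, 2087 and 6391 (3999.9 ± 2192, n = 3). SecPDG libraries held 520.0, 239, 496 and 492 (437 ± 133, n = 4). AbsPro libraries were all above the other 2 types, which overlapped. Tuft libraries held 94.0, 115, 329.9, 131 and 728 (279.5 ± 268, n = 5). Tuft 5, the library highest in both enterocyte and enteroendocrine markers of that type, lay above the rest. Enterocyte libraries gave 8055, 8431, 11012, 9704 and 12343 (9909 ± 1789, n = 5), and EEC 16892 and 43393. No EEC library overlapped the Enterocyte group and no Enterocyte library overlapped AbsPro. EEC 1 had the lowest enterocyte marker sum of all libraries, 5933, whereas EEC 2, the higher in Krt20, held 92456. The part of enterocytes in these values was not tested. The means fell 108-fold in the order EEC, Enterocyte, AbsPro, Stem, SecPDG, Tuft. Of the neighbours only AbsPro above Stem was called (adjusted p = 0.00477), while EEC above Enterocyte (adjusted p = 0.0701) and Enterocyte above AbsPro (adjusted p = 0.0430) were not.

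Krt23 was the lowest of the members and was sizeable in Tuft cells alone. Stem libraries held 85.7, 37.1 and 156 normalized counts (92.8 ± 59.6, SD, n = 3), and AbsPro 45.2, 117 and 23.4 (61.9 ± 49.0, n = 3). SecPDG libraries held 9.45, 60.9, 80.9 and 69.5 (55.2 ± 31.6, n = 4). The 3 groups overlapped one another. Tuft libraries held 1505, 789, 1328, 1963 and 1304 (1378 ± 422, n = 5). Enterocyte libraries gave 64.4, 82.6, 103, 63.9 and 63.7 (75.5 ± 17.3, n = 5), and EEC 103 and 292. Every Tuft library lay above all 17 others. In order of means the types were Tuft, EEC, Stem, Enterocyte, AbsPro and SecPDG, with a 25.0-fold range. Only the first neighbours, Tuft above EEC, were called (adjusted p = 0.00380). The order of the types below Tuft rests on low counts.

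**Figure D1:**
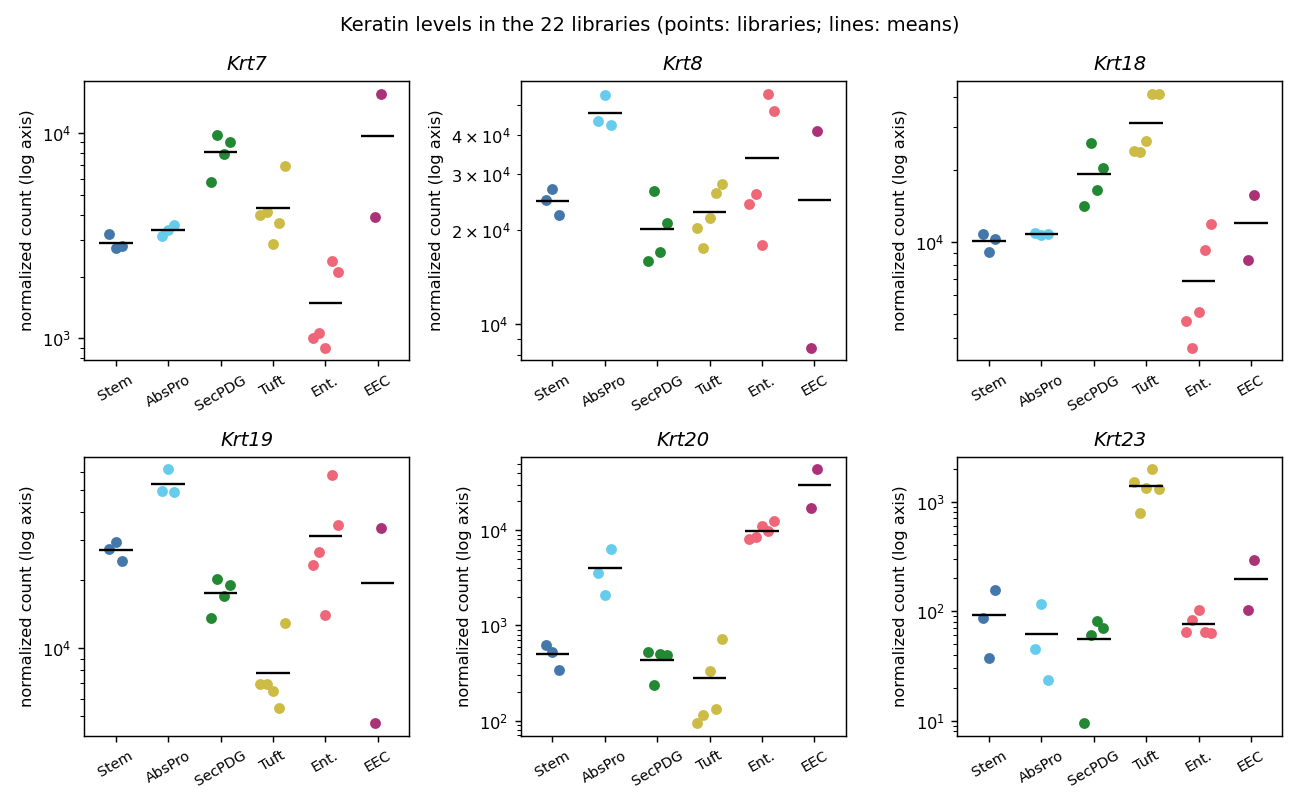
Normalized counts of the 6 keratin genes (log axis) in each of the 22 libraries, by cell type; points are libraries and lines are means. Krt8 stays within a 2.34-fold range of means, Krt20 climbs from 279.5 in Tuft to 30142 in EEC, and Krt23 is set apart in the 5 Tuft libraries.

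Per kilobase of exon, the balance between the 6 chains shifted between the types. Summed, they made up 0.442% ± 0.0363 (SD, n = 3) of counts on genes in Stem, 0.767% ± 0.0875 (n = 3) in AbsPro, 0.370% ± 0.0178 (n = 4) in SecPDG, 0.477% ± 0.0886 (n = 5) in Tuft and 0.738% ± 0.117 (n = 5) in Enterocyte libraries. The EEC libraries gave 0.569% and 0.942%. All AbsPro libraries were above all Stem, SecPDG and Tuft libraries in this sum. Within the summed level per kilobase, Krt8 took 36.1% ± 1.28 in Stem (SD, n = 3), 19.5% to 28.1% in single EEC libraries and 34.9% to 41.9% in Enterocyte libraries. Among the type I chains, the share of Krt18 was 20.2% ± 2.53 in Stem, 10.7% to 12.8% in AbsPro, 38.4% ± 1.67 in SecPDG, 55.1% ± 3.70 in Tuft and 10.9% ± 2.97 in Enterocyte libraries. The share of Krt19 was 41.6% ± 1.41, 45.5% ± 1.90, 27.6% ± 2.06, 10.7% ± 2.74 and 37.0% ± 6.32 in the same order. Krt18 thus outweighed Krt19 in every SecPDG and Tuft library, and Krt19 outweighed Krt18 in every Stem, AbsPro and Enterocyte library. EEC libraries were divided, with Krt18 ahead in EEC 1 and behind in EEC 2.

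Krt20 took 0.730% ± 0.175 of the keratin level per kilobase in Stem, 3.40% ± 2.02 in AbsPro, 0.709% ± 0.314 in SecPDG, 0.343% ± 0.258 in Tuft and 13.1% ± 5.41 in Enterocyte libraries, but 29.9% and 39.7% in the EEC pair. It was the largest single share in both EEC libraries. Krt7 took 3.35% ± 0.263 in SecPDG and less elsewhere, and Krt23 reached 2.28% ± 0.616 in Tuft. The share of Krt7 depends on its length, which is 7049 bases as the union of exons and 4094 bases for the longest transcript.

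**Figure D2:**
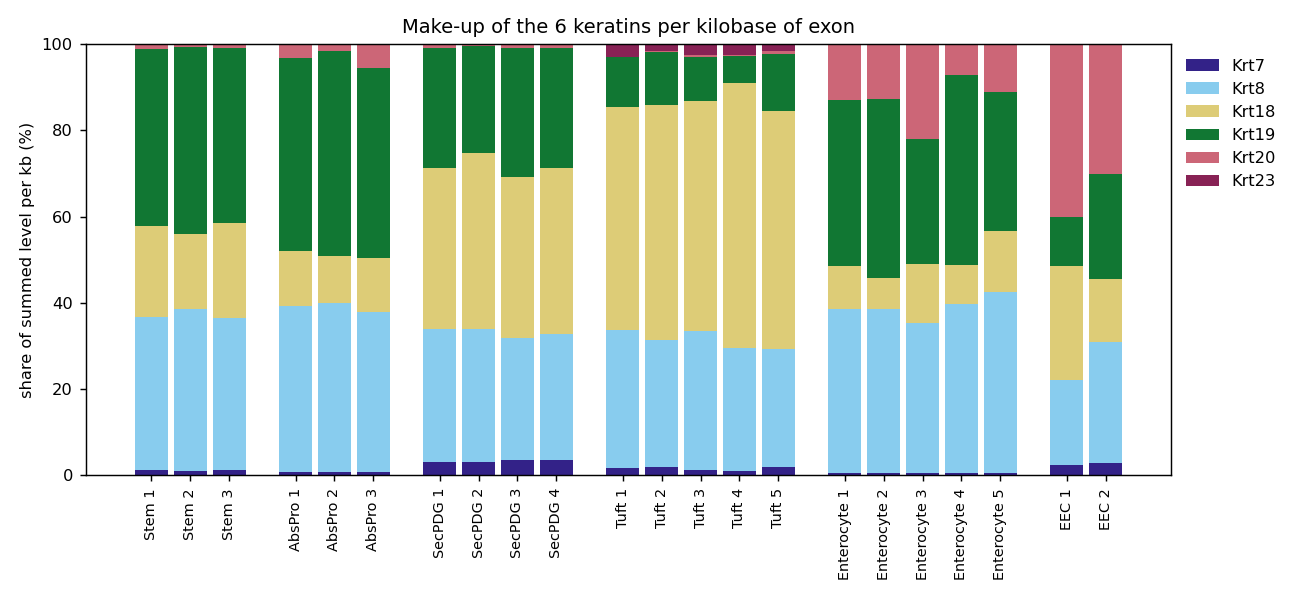
Share of each keratin (stacked bars, percent) in the summed level per kilobase of exon of the 6 keratins, in each of the 22 libraries. Krt18 takes 51.5% to 61.3% in Tuft libraries where Krt19 takes 6.26% to 13.3%, and Krt20 takes 29.9% and 39.7% in the EEC libraries.

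The log2 ratio of type I to type II level per kilobase, which asks whether partner chains stay matched, was 0.78, 0.67 and 0.80 in Stem, 0.63, 0.58 and 0.72 in AbsPro and 0.96, 0.96, 1.09 and 1.04 in SecPDG libraries. Tuft libraries gave 0.97, 1.13, 0.99, 1.25 and 1.27, Enterocyte libraries 0.68, 0.67, 0.87, 0.61 and 0.44 and EEC libraries 1.82 and 1.15. Values in SecPDG, Tuft and EEC were all above the Stem and AbsPro ranges. These ratios use the 7049-base length of Krt7. A shorter Krt7 would lower them, most where Krt7 weighs most against Krt8, so the gap between types depends on that length. The exact two-sided permutation test gave p = 0.0286 for SecPDG against Stem (adjusted p = 0.103 over 18 ratio tests) and p = 0.0357 for Tuft against Stem (adjusted p = 0.107). EEC against Stem gave p = 0.1 by the same permutation test, the smallest that 2 against 3 libraries allow. The log2 ratio of Krt20 to the sum of Krt8, Krt18 and Krt19 was -6.77, -7.04 and -7.48 in Stem, -4.96, -5.97 and -4.07 in AbsPro and -6.55, -8.42, -6.83 and -7.10 in SecPDG libraries. It was -9.30, -8.93, -7.59, -9.37 and -7.05 in Tuft, -2.75, -2.78, -1.82, -3.70 and -3.001 in Enterocyte and -0.53 and -1.16 in EEC libraries. AbsPro, Enterocyte and EEC formed steps that did not overlap one another. For Enterocyte against AbsPro the exact permutation p was 0.0179, the smallest these 5 and 3 libraries allow, and the adjusted p was 0.103. None of the 18 ratio tests passed an adjusted p of 0.05, the lowest being 0.103, while 6 of them had an unadjusted p under 0.05. Permutation tests of 3 against 3 libraries cannot go below 0.1. With such floors, the lack of passing tests does not show that the balance of chains stays the same.

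The comparison of AbsPro with Stem asks what changes on entry into the absorptive lineage. All 5 comparisons with Stem share the same 3 Stem libraries. A gene was called where edgeR's quasi-likelihood test gave a Benjamini-Hochberg adjusted p below 0.01 and it averaged 50 or more normalized counts across the 22 libraries. Krt20 rose 8.06-fold (log2 fold change +3.01, SE 0.59, adjusted p = 0.00477). It was the single member called of 6, where 0.342% of the 22781 tested genes were called higher and 0.0219% lower. Krt8 and Krt19 were higher in 3 of 3 AbsPro libraries than in any Stem library, with log2 values of +0.93 (adjusted p = 0.454) and +0.97 (adjusted p = 0.461), and did not pass the test. How often libraries lie apart in this way over all genes was not counted, here or in later comparisons. Krt7, Krt18 and Krt23 gave +0.20 (adjusted p = 1), +0.10 (adjusted p = 1) and -0.58 (adjusted p = 0.787). The Krt20 call was lost on leaving out Stem 1 (+3.20, adjusted p = 0.0336), Stem 2 (+3.05, 0.0301), Stem 3 (+2.76, 0.0422) or AbsPro 3 (+2.54, 0.0328), each a smaller design. Enterocyte markers moved with it, from sums of 11899.7 to 22679.9 in Stem to 64215 to 97352 in AbsPro. Enteroendocrine markers also moved, from 587 to 1039.6 in Stem to 3933 to 15610.8 in AbsPro. Goblet markers went from 19418 to 32563 in Stem to 84344 to 254228 in AbsPro. The part of these cells in the Krt20 rise was not tested.

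On the secretory side, SecPDG against Stem called none of the 6 keratins, beside 2.41% of all genes higher and 0.689% lower. Krt7 and Krt18 passed an unadjusted p of 0.05, with +1.47 (adjusted p = 0.0300) and +0.93 (adjusted p = 0.218) on the log2 scale. Both were higher in 4 of 4 SecPDG libraries than in any Stem library, which was not counted over all genes. DESeq2 called 2 of the 6 in this comparison, beside 1877 of 23674 genes. Krt19 gave -0.63 (adjusted p = 0.511), with no overlap of libraries, and Krt8, Krt20 and Krt23 gave -0.30 (adjusted p = 0.797), -0.18 (adjusted p = 0.912) and -0.75 (adjusted p = 0.425). Over all genes the split of higher to lower calls was 550 to 157, and 655 to 551 when scaled by library totals.

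Tuft cells, the chemosensory cells of the epithelium, differed from Stem in 3 type I chains. Krt23 rose 14.8-fold (log2 fold change +3.89, SE 0.58, adjusted p = 1.25e-05) and Krt18 3.11-fold (log2 fold change +1.64, SE 0.44, adjusted p = 0.00879). Krt19 fell 3.49-fold (log2 fold change -1.80, SE 0.48, adjusted p = 0.00870). In all 3 genes the 5 Tuft and 3 Stem libraries did not overlap. Among all genes 4.42% were called higher and 2.03% lower. Krt7, Krt8 and Krt20 gave +0.56 (adjusted p = 0.279), -0.12 (adjusted p = 0.863) and -0.82 (adjusted p = 0.186). Each comparison was refitted under 14 other settings and without each of the 22 libraries, 36 refits in all. Krt23 was called under all 36 refits, Krt18 under 26 and Krt19 under 24. DESeq2 also called Krt7 (+0.73, adjusted p = 0.00502). The Krt18 call was lost with common dispersion (adjusted p = 0.0146), with a term for the replicate number (+1.25, 0.0224) and on leaving out Stem 1, 2 or 3, SecPDG 3 or 4, or Tuft 2, 3 or 5 (0.0108 to 0.0359). The Krt19 call was lost on subtracting background (-1.50, 0.01002), with common dispersion (0.0187) and on leaving out Stem 1 or 2, SecPDG 3 or 4, Tuft 1, 2, 3 or 4, or Enterocyte 2 or 5 (highest adjusted p = 0.0301). Goblet markers moved too, from sums of 19418 to 32563 in Stem to 720518.5 to 1095442 in Tuft libraries.

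In Enterocytes, the absorptive cells, Krt20 was the member that changed from Stem. It rose 20.0-fold (log2 fold change +4.32, SE 0.60, adjusted p = 3.51e-06), was higher in 5 of 5 libraries and was called under all 36 refits. Of all genes 5.6% were called higher and 7.93% lower. Krt7 was below Stem in 5 of 5 libraries, at -0.98 (adjusted p = 0.0338), but missed the threshold. Krt8, Krt18, Krt19 and Krt23 gave +0.46 (adjusted p = 0.422), -0.54 (adjusted p = 0.258), +0.21 (adjusted p = 0.735) and -0.30 (adjusted p = 0.629). Krt8 was called at +0.83 (adjusted p = 0.00998) with edgeR on library totals and at +0.92 (adjusted p = 0.000413) by DESeq2, and Krt7 at -1.39 (adjusted p = 0.00429) with a term for the replicate number. These values depend on scaling, as the median over genes averaging 50 or more counts was a log2 fold change of -0.30 under TMM and +0.23 with median-ratio factors. The split of higher to lower calls over all genes was 1276 to 1806 under TMM, and 2582 to 1114 with median-ratio factors.

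EEC libraries, from hormone-secreting cells, differed from Stem in Krt20 and Krt7, both higher. Krt20 rose 60.8-fold (log2 fold change +5.93, SE 0.69, adjusted p = 1.41e-07), and 2 of 2 EEC libraries were above every Stem library. Krt7 rose 3.32-fold (log2 fold change +1.73, SE 0.48, adjusted p = 0.00599). The all-gene shares were 6.58% higher and 7.45% lower, with a split of 1500 to 1697 under TMM and 3167 to 1210 with median-ratio factors. Krt20 was called under all 36 refits, with +5.09 (adjusted p = 8.26e-07) on EEC 1 alone. The Krt7 rise came mostly from EEC 2, since without that library it was +0.41 (adjusted p = 0.492) and without EEC 1 it was +2.24 (3.31e-05). It was also lost in the fit of these 2 cell types alone (+1.86, 0.0487) and without Stem 1, 2 or 3 (0.0171 to 0.0177). Krt8, Krt18, Krt19 and Krt23 gave +0.01 (adjusted p = 1), +0.26 (adjusted p = 0.714), -0.49 (adjusted p = 0.545) and +1.097 (adjusted p = 0.137). DESeq2 also called Krt18, at +0.92 (adjusted p = 0.00299). With 1 EEC library the fit takes its spread from the other types. On EEC 1 alone Krt19 was lower than Stem by -2.54 (adjusted p = 0.00370), and on EEC 2 alone it was +0.16.

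**Figure D3:**
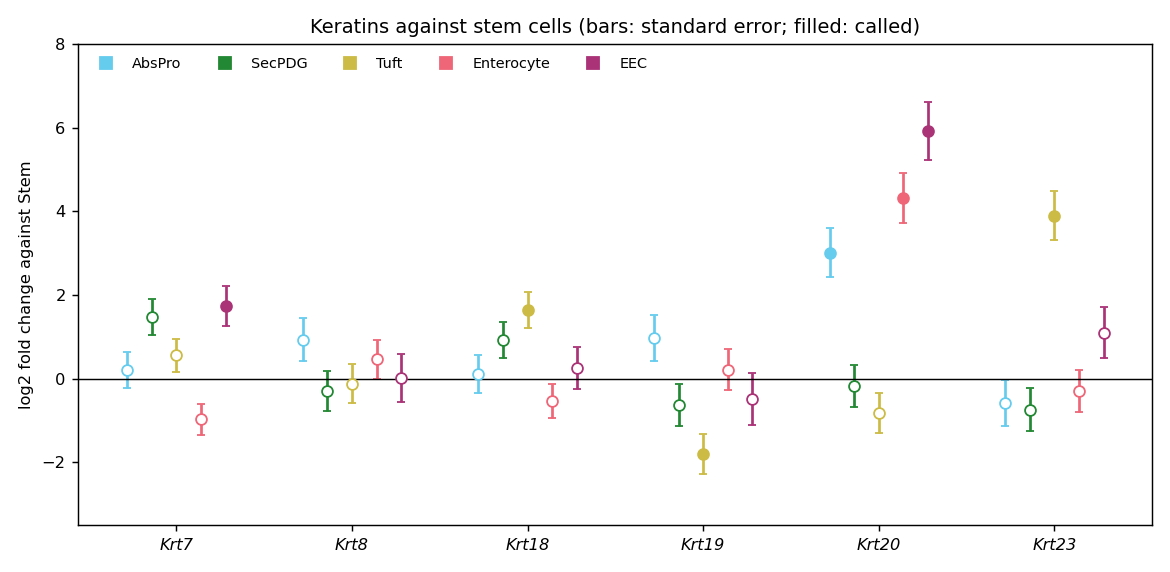
Log2 fold change against Stem of each keratin in the 5 other cell types, from the edgeR fit of 22 libraries; bars are standard errors, and filled points passed the test. The filled points are Krt20 in AbsPro, Enterocyte and EEC, Krt18, Krt19 and Krt23 in Tuft, and Krt7 in EEC.

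The progenitor gates were then set against each other. Krt20 was 9.15-fold lower in SecPDG than in AbsPro (log2 fold change -3.19, SE 0.53, adjusted p = 0.000153), in 4 of 4 SecPDG libraries and under all 36 refits. No other member passed, beside 1.21% of genes higher and 1.01% lower. The all-gene split was 276 to 230, and 390 to 542 by library totals. Krt19 gave -1.60 (adjusted p = 0.0757), Krt8 -1.23 (adjusted p = 0.185), Krt7 +1.27 (adjusted p = 0.0888) and Krt18 +0.83 (adjusted p = 0.356), all without overlap of libraries. The share of all genes without overlap was not counted. Krt7 and Krt18 had the higher values in SecPDG, and Krt8 and Krt19 in AbsPro. DESeq2 called 5 of the 6 members here, beside 1470 of 23674 genes. Median-ratio factors in edgeR called 4, beside 926 of 22781 genes.

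From AbsPro to Enterocyte no keratin was called, while 1.91% of genes were higher and 3.18% lower. The all-gene split was 434 to 725, and 864 to 382 with median-ratio factors, with a median log2 fold change of -0.38 and +0.17. At an unadjusted p of 0.05, edgeR had 2 members, Krt20 at +1.31 (adjusted p = 0.0430) and Krt7 at -1.18 (adjusted p = 0.0212). Neither gene's libraries overlapped between the 2 types, which was not counted over all genes. DESeq2 called 2 members, beside 3789 of 23674 genes. Krt8, Krt18, Krt19 and Krt23 gave -0.47 (adjusted p = 0.396), -0.64 (adjusted p = 0.187), -0.76 (adjusted p = 0.191) and +0.28 (adjusted p = 0.654).

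From SecPDG to Tuft, Krt23 rose 24.9-fold (log2 fold change +4.64, SE 0.54, adjusted p = 3.29e-07), in 5 of 5 Tuft libraries and under all 36 refits. In this comparison 0.865% of genes were called higher and 0.0351% lower. Krt19, with -1.18 (adjusted p = 0.0880), and Krt7, with -0.91 (adjusted p = 0.0920), did not pass, nor did Krt18 with +0.71 (adjusted p = 0.197), Krt8 with +0.18 (adjusted p = 0.787) or Krt20 with -0.64 (adjusted p = 0.318). DESeq2 called 4 of the 6 members here, beside 1689 of 23674 genes. The step from SecPDG to Tuft was also tested against the step from AbsPro to Enterocyte. For Krt23 the 2 steps differed by +4.35 on the log2 scale (SE 0.69, adjusted p = 0.000408), where 0.268% of all genes were called. None of the other 5 members was called in that test, with adjusted p values of at least 0.273, although Krt18 and Krt20 had an unadjusted p under 0.05.

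From SecPDG to EEC, Krt20 rose 69.0-fold (log2 fold change +6.11, SE 0.61, adjusted p = 1.39e-08), in 2 of 2 EEC libraries and under all 36 refits, with +5.27 on EEC 1 alone. The all-gene shares were 6.65% higher and 8.35% lower, split 1516 to 1903 under TMM and 3552 to 1515 with median-ratio factors. Krt23 gave +1.85 (adjusted p = 0.0122) and did not pass. DESeq2 called 3 members, Krt7 and Krt23 besides Krt20, where it called 6270 of 23674 genes. Krt7, Krt8, Krt18 and Krt19 gave +0.26 (adjusted p = 0.650), +0.31 (adjusted p = 0.654), -0.67 (adjusted p = 0.266) and +0.14 (adjusted p = 0.858).

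The other 6 pairs of cell types, used for the order of levels, held 15 further calls. Enterocyte and Tuft libraries differed in 5 of the 6 members, where 6.31% of all genes were called in either direction. Krt20 was higher in Enterocytes by +5.14 on the log2 scale (adjusted p = 2.75e-09) and Krt19 by +2.01 on the log2 scale (adjusted p = 0.00150). Enterocytes were lower in Krt23, with -4.19 on the log2 scale (adjusted p = 7.76e-08), in Krt18, with -2.18 on the log2 scale (adjusted p = 5.77e-05), and in Krt7, with -1.54 on the log2 scale (adjusted p = 0.00191). Krt8 alone was not called between them. Tuft against AbsPro (3.96% of genes called) held Krt19, Krt20 and Krt23, and Enterocyte against SecPDG (14.7%) held Krt7, Krt18 and Krt20. EEC against Tuft (5.3%) held Krt20 and Krt23, EEC against AbsPro (10.9%) held Krt20, and EEC against Enterocyte (2.88%) held Krt7. For these 6 pairs the alternatives were not computed.

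For each keratin the genes with the most similar log2 profile over the 22 libraries were listed, among 13187 candidates. All points of a correlation share the same libraries, scaling and cell types, so r is a description. Krt7 was closest to Foxa1, a forkhead transcription factor (r = 0.958), which averaged 4534 normalized counts in EEC and 1131 in Enterocytes, then to Tox3 (0.940). Krt8 was closest to Mgst3, a microsomal glutathione transferase (0.931), Sema4g (0.915) and Slc9a3r1, an apical scaffold protein (0.910). The closest gene to Krt18 was Cd24a (0.939), whose product was used to sort the cells and which averaged 35249.8 in Tuft and 1152 in Enterocytes. Next to it came Acsl4 (0.935) and Txndc16 (0.925). Krt19 followed the monocarboxylate transporter gene Slc16a1 (0.963), which averaged 6798 in AbsPro and 824 in Tuft, and Mettl7b (0.954) and Mettl7a1 (0.951). Krt20 was nearest to Cldn4, a tight junction claudin (0.920), with 6349 in EEC and 93.5 in Tuft, then Errfi1, an EGF receptor inhibitor (0.905), and Slc16a5 (0.890). Krt23 was nearest to Adcy5, an adenylyl cyclase (0.952), with 2006 in Tuft and 39.1 in SecPDG, the prostaglandin D synthase Hpgds (0.943) and the phosphatase Ptpn6 (0.931). Among the members, r was highest for Krt8 with Krt19 (0.798) and Krt7 with Krt18 (0.697), and lowest for Krt18 with Krt20 (-0.662).

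The other 46 keratin genes, 24 of type I and 22 of type II, were low throughout. Only 6 of them reached a mean of 50 normalized counts, namely Krt83 (203), Krt84 (72.5), Krt222 (61.9), Krt9 (61.1), Krt10 (57.7) and Krt78 (51.7). None was at 0 in all libraries. Against Stem, calls among them numbered 1 in Tuft, 1 in Enterocyte and 3 in EEC libraries, all of them higher, beside 4.42%, 5.6% and 6.58% of all genes. Krt222 rose in Tuft (+5.96, SE 1.60, adjusted p = 0.00939; means 135 and 2.02), a call lost on subtracting the background (adjusted p = 0.0127). Krt9, a keratin of palm and sole skin, rose in Enterocyte (+6.34, SE 1.61, adjusted p = 0.00359) and EEC libraries (+7.44, SE 1.75, adjusted p = 0.00189). It averaged 104 and 223 there against 1.15 in Stem, and both calls remained after subtraction. With so few Stem counts, such fitted values depend on the prior count of the fit. Over the 6 that reached a mean of 50, the median log2 fold change was 3.17 in Enterocyte and 4.45 in EEC against Stem. Over all genes that reached it the medians were -0.30 and -0.33. The background per kilobase was highest in the same libraries, and its part in that median was not tested.

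Of 15 other intermediate filament genes, 11 had a mean of at least 50. Against Stem, 1 rose in AbsPro, 3 in Tuft, 5 in Enterocyte and 4 in EEC libraries, and 2, 2 and 1 fell in the last 3. Of all genes, 0.342%, 4.42%, 5.6% and 6.58% were called higher in these 4 comparisons, and 2.03%, 7.93% and 7.45% lower in the last 3. Lmnb1, the nuclear lamin B1, fell in Tuft (-1.61, SE 0.31, adjusted p = 0.000517), Enterocyte (-2.58, SE 0.32, adjusted p = 4.37e-07) and EEC (-3.31, SE 0.47, adjusted p = 3.49e-06). The neurofilament gene Nefl rose in Tuft (+6.55, SE 1.25, adjusted p = 0.000398), from 2.86 to 284 normalized counts, again on few Stem counts. Nefm, another neurofilament, rose in EEC (+8.46, SE 1.22, adjusted p = 5.36e-06), from 4.13 to 1463, and synemin, Synm, rose in Enterocytes (+6.66, SE 1.49, adjusted p = 0.00132). Vim, the mesenchymal filament, rose in AbsPro (+2.68, SE 0.54, adjusted p = 0.00607), a call lost on subtracting background (adjusted p = 0.0158). AbsPro 3 held the highest stromal marker sum of its type, 1244.5.

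Desmosomes anchor keratin filaments at cell contacts, and plakins link them there. Of 17 such genes, 15 with a mean of at least 50, 1 rose in Tuft, 1 rose and 2 fell in Enterocytes, and 3 rose and 1 fell in EEC. Over all genes 4.42% were called higher in Tuft, 5.6% higher and 7.93% lower in Enterocytes and 6.58% higher and 7.45% lower in EEC, so counts of 1 or 2 are near that background. Epiplakin, Eppk1, rose in Tuft (+2.26, SE 0.42, adjusted p = 0.000289) from 4368 to 20965. Dystonin, Dst, rose in Enterocytes (+1.57, SE 0.39, adjusted p = 0.00293) and envoplakin, Evpl, in EEC (+2.47, SE 0.49, adjusted p = 0.000347). Desmocollin 2, Dsc2, fell in EEC (-1.64, SE 0.49, adjusted p = 0.00920). Plakophilin 1, Pkp1, fell in Enterocytes (-1.23, SE 0.30, adjusted p = 0.00251), a call lost on subtracting background (adjusted p = 0.0128).

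Among 16 keratin partners and modifying enzymes, 2 fell in SecPDG, 2 in Tuft, 1 in Enterocytes and 1 in EEC, and 1 rose in EEC. Of all genes, 0.689%, 2.03%, 7.93% and 7.45% were called lower in these 4 comparisons and 6.58% higher in EEC. Sfn, the 14-3-3 sigma protein that binds keratins, fell in SecPDG (-1.51, SE 0.33, adjusted p = 0.00318) and Tuft (-2.28, SE 0.32, adjusted p = 3.56e-06). Tgm2, a transglutaminase that can cross-link keratins, fell in Enterocytes (-2.86, SE 0.32, adjusted p = 9.67e-08) and EEC (-2.23, SE 0.44, adjusted p = 0.000348). Prkce, a protein kinase C, rose in EEC (+2.11, SE 0.45, adjusted p = 0.000782). Of 11 brush border and terminal web genes, 1 rose in SecPDG and 2 each in Tuft, Enterocyte and EEC libraries, beside 2.41%, 4.42%, 5.6% and 6.58% of all genes. Cdhr5, a cadherin of microvilli, rose in SecPDG (+2.29, SE 0.41, adjusted p = 0.000275) and Enterocytes (+1.82, SE 0.39, adjusted p = 0.000947). Espin, Espn, which bundles actin in microvilli, rose in Tuft (+3.04, SE 0.42, adjusted p = 3.60e-06) and EEC (+2.59, SE 0.46, adjusted p = 9.82e-05). Over genes with a mean of at least 50, the medians of these 2 lists in EEC were -0.70 and 0.07, beside -0.33 for all such genes.

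The last measurement was the share of each transcript that ends at the distal polyadenylation site, as DaPars derived it from read coverage over the 3 prime UTR. A share of 1 means that all transcripts extend to the end of the 3 prime UTR listed with the share. For Krt7 that end lies upstream of the end searched for hexamers above. Rows were listed for Krt7, Krt8 and Krt19 in all 5 tables and for Krt20 in 3, and Krt18 and Krt23 had no row. The values are listed by place within a group, and their depth is unknown. In Stem, Krt7 had shares of 0.60, 0.68 and 0.73, Krt8 0.42, 0.59 and 0.60 and Krt19 0.29, 0.31 and 0.29. The last thus had the lowest share, and the closest replicates. Krt19 shares were 0.26, 0.25 and 0.32 in AbsPro, 0.28, 0.34, 0.25 and 0.29 in SecPDG, 0.22, 0.37, 0.28, 0.26 and 0.30 in Tuft, 0.28, 0.33, 0.18, 0.27 and 0.17 in Enterocyte and 0.10 and 0.29 in EEC libraries. The range of every type overlapped that of Stem. Krt8 shares were 0.58, 0.56 and 0.68 in AbsPro, 0.44, 0.51, 0.48 and 0.51 in SecPDG, 0.71, 0.54, 0.50, 0.51 and 0.51 in Tuft, 0.49, 0.56, 0.56, 0.55 and 0.46 in Enterocyte and 0.37 and 0.40 in EEC libraries. EEC alone fell below all Stem values (adjusted p = 0.456, limma). Krt7 shares were 0.84, 0.37 and 0.71 in AbsPro, 0.73, 0.56, 0.70 and 0.68 in SecPDG, 0.50, 0.56, 0.63, 0.67 and 0.73 in Tuft, 0.34, 0.75, 0.65, 0.65 and 0.76 in Enterocyte and 0.73 and 0.46 in EEC libraries. They overlapped the Stem range in every type.

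Krt20, whose end is printed above with its 3 upstream hexamers, had a different predicted proximal site in each of its 3 tables, so its Stem shares differ between them. In the AbsPro table (site 11:99428820) Stem had 0.70, 0.51 and 0.72 and AbsPro 0.39, 0.95 and 0.41 (adjusted p = 1, limma). The Enterocyte table (11:99428877) listed 0.48, 0.59 and 0.85 in Stem and 0.51, 0.44, 0.21, 0.39 and 0.19 in Enterocytes (adjusted p = 0.498). The EEC table (11:99428805) listed 0.77, 0.49 and 0.69 in Stem and 0.12 and 0.38 in EEC (adjusted p = 0.353). Groups overlapped in the first 2 tables and not in the third, and mean shares were lower in Enterocyte and EEC than in Stem without passing the test. The ATTAAA 427 bases before the annotated end finished 4 bases before the site predicted in the AbsPro table and 19 bases before that of the EEC table. None of the printed hexamers lay before the site of the Enterocyte table, and all of them lay past it. Over all transcripts, 0% of 4484 were called in the AbsPro table, 0.0268% of 3733 in SecPDG, 0.0736% of 2719 in Tuft, 0.0598% of 1672 in Enterocyte and 0% of 718 in EEC. No keratin was called in any table at an adjusted p of 0.05 by limma, and 2 of the 18 keratin rows had an unadjusted p under 0.05, both of them Krt20.

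**Figure D4:**
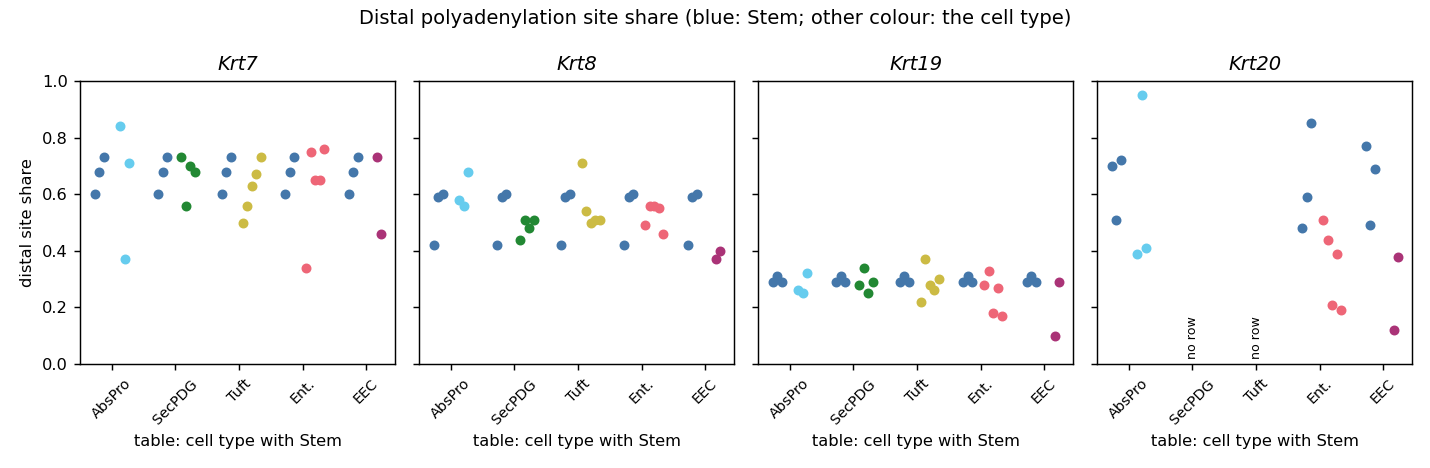
Distal polyadenylation site share (0 to 1) of Krt7, Krt8, Krt19 and Krt20 in the 5 tables that pair a cell type with Stem; each point is 1 library, with Stem in blue. Krt19 stays between 0.10 and 0.37, and Krt20 has 0.12 and 0.38 in EEC where Stem has 0.49 to 0.77 in the same table.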

How the data were processed

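RNA of 22 libraries from 6 sorted mouse colon cell types was analysed. Per the study's methods and the submitters' notes, the authors aligned paired-end reads to mm10 with STAR 2.5.2a and deposited whole-number read counts per gene from HTSeq 0.6.1p1, made without strand. They also deposited DaPars tables holding, as a fraction from 0 to 1 rounded to 2 decimals, the share of each transcript that ends at its distal polyadenylation site. These tables name libraries by place only. Their own comparison columns (differences and p-values) were not used. Libraries came from independent mice or pools of mice and independent sorts.

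Entries that name no gene were left out of totals; they made up 53.9% to 91.6% of all listed entries. Depth ranged from 4122122 to 22462518 counts on genes. Counts of 22 libraries entered 1 fit with edgeR 4.0.16 (TMM scaling, filterByExpr, quasi-likelihood F test at its default), with cell type as the only term. P values were adjusted by Benjamini-Hochberg within each comparison over 22781 genes. A gene was called at an adjusted p below 0.01 with a mean of at least 50 normalized counts, as 13188 genes had. No offset was added to ratios per kilobase, tested by exact permutation. Distal shares were tested with limma 3.58.1 on log2((share + 0.01)/(1 - share + 0.01)), called below 0.05. R 4.3.3, DESeq2 1.42.0, Python 3.11.15 and scipy 1.17.1 were used.

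On simulated counts for Tuft against Stem (22033 genes), the fit recovered 0%, 48%, 92% and 86% of genes changed 2-, 4-, 8- and 16-fold, with 1 false call. For EEC against Stem (21996 genes) it recovered 0%, 32%, 74% and 80%, with 2. In simulated shares (5 against 3 libraries, 1672 transcripts) 95% and 100% of shifts of 3 and 5 on that log2 scale were recovered, with 9 false calls.

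The members and the gene lists were chosen with earlier results of these data known. Named genes were the 6 keratins, the 3 genes of highest Pearson r with each (1 of them is not reported here), and for each list and comparison against Stem the called gene with the largest rise and the largest fall. No 2 replicates were alike within sampling noise (lowest chi-square per degree of freedom 10.8). Sequences and coordinates come from the mm10 annotation given with the data. Alternatives were other scaling, filters, dispersion settings, DESeq2, thinning, background subtraction, 2-type fits, a term for the replicate number and each library left out.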

Additional observations from a re-analysis of the deposited data

Results flagged for a closer look

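A library far from the others of its group was looked for in 37 groups of 4 or 5 libraries with Dixon's test, where chance gives about 1 in 20, and 4 were found. Krt19 stood at 12861 normalized counts in Tuft 5, far above the other Tuft libraries. Tuft 5 also had the highest enterocyte and enteroendocrine marker sums of that type, and the part of these cells in its Krt19 was not tested. Krt20 stood at 239 in SecPDG 2, far below the other SecPDG libraries, and SecPDG 2 had the highest goblet marker sum of all libraries, 3071719.5. The distal share of Krt7 was 0.34 in 1 Enterocyte library (place B_1), below the other 4. The distal share of Krt8 was 0.71 in 1 Tuft library (place B_1), above the other 4.

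The step from SecPDG to Tuft and the step from AbsPro to Enterocyte differed in Krt23 by 4.35 on the log2 scale, by edgeR's test of the difference (adjusted p = 0.000408). Tuft libraries exceeded SecPDG in 5 of 5 cases, whereas Enterocyte and AbsPro libraries overlapped.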

How the results depend on the processing

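Each log2 fold change was refitted under 14 other settings and without each of the 22 libraries in turn, 36 refits in all. A threshold of 0.05 and a minimum mean taken over the 2 types compared were also tried. These refit nothing and are not among the 36. 5 of the settings were other dispersion or quasi-likelihood options, which were chosen after the calls under the default had been seen, as was leaving Krt7 out of the type ratio. Krt20 in Enterocyte and EEC against Stem, SecPDG against AbsPro and EEC against SecPDG, and Krt23 in Tuft against Stem and SecPDG, were called under all 36 refits. Krt20 in AbsPro against Stem was called under 32 of them, Krt7 in EEC against Stem under 31, Krt18 in Tuft against Stem under 26 and Krt19 in Tuft against Stem under 24. In simulated counts for Tuft and for EEC against Stem, 0% of 2-fold changes were recovered. Of 4-fold changes, 48% were recovered for Tuft and 32% for EEC. A keratin that was not called may thus still differ 2-fold or 4-fold. EEC rests on 2 libraries that differ from each other, and a fit with 1 of them takes its spread from other types. Leaving out any 1 Stem library, or AbsPro replicate 3, ended the call of Krt20 in AbsPro against Stem (adjusted p = 0.0301 to 0.0422, edgeR). Leaving out any 1 Stem library ended that of Krt7 in EEC against Stem, and without EEC replicate 2 its log2 fold change was 0.41 (adjusted p = 0.492). Without that library Krt19 in EEC against Stem stood at -2.54 (adjusted p = 0.00370). The cause of the changes listed here was not tested.

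In the fit of 2 cell types alone the number of the 6 keratins called was 3 for AbsPro against Stem (1 with all 22 libraries), 3 for SecPDG against Stem (0), 1 for EEC against Stem (2), 5 for SecPDG against AbsPro (1), 1 for Enterocyte against AbsPro (0) and 3 for Tuft against SecPDG (1). In the same order, these fits called 310 of 13829 genes, 1805 of 13789, 261 of 17736, 1315 of 13841, 3072 of 21427 and 553 of 16674. The main fit called 83, 707, 3197, 506, 1159 and 205 of 22781. DESeq2 called 2 for SecPDG against Stem, 4 for Tuft against Stem (3), 2 for Enterocyte against Stem (1), 3 for EEC against Stem, 5 for SecPDG against AbsPro, 2 for Enterocyte against AbsPro, 4 for Tuft against SecPDG and 3 for EEC against SecPDG (1). Over 23674 genes it called 1877, 3835, 5274, 5708, 1470, 3789, 1689 and 6270 in that order. For SecPDG against Stem 1 keratin was called with median-ratio, total-count or upper-quartile scaling, background subtraction, legacy=FALSE or an adjusted p under 0.05. All-gene calls were then 1205, 1206, 1128, 797, 1132 and 1251, beside 707 in the main fit. For Tuft against Stem common dispersion left 1 of 3, and the replicate block and background subtraction left 2 each. All-gene calls were 1435, 1925 and 1336 there, beside 1468 in the main fit. For Enterocyte against Stem 2 were called with library totals (Krt8 the second), the replicate block (Krt7) or a threshold of 0.05 (Krt7). These called 3577, 3673 and 5395 of all genes, beside 3082 in the main fit. SecPDG against AbsPro gave 4 with median ratios, 4 with library totals and 3 with upper quartiles, where 926, 932 and 843 of all genes were called (506 in the main fit). Enterocyte against AbsPro gave 1 with each of these 3 scalings and with the replicate block, and 2 with legacy=FALSE or a threshold of 0.05. In that order 1246, 1169, 1142, 2418, 3686 and 4278 of all genes were called, beside 1159 in the main fit. Tuft against SecPDG gave 2 with library totals, where 330 of all genes were called (205 in the main fit). EEC against SecPDG gave 2 with each of the 3 scalings, thinned counts, legacy=FALSE, tagwise dispersion or a threshold of 0.05. In that order 5067, 5074, 4549, 2766, 4838, 4162 and 5905 of all genes were called, beside 3419 in the main fit. Leaving out 1 library gave 0 to 1 for AbsPro against Stem, 0 to 1 for SecPDG, 1 to 3 for Tuft, 1 to 2 for Enterocyte and 1 to 2 for EEC against Stem. It gave 1 to 4 for SecPDG against AbsPro, 0 to 2 for Enterocyte against AbsPro, 1 to 2 for Tuft against SecPDG and 1 to 2 for EEC against SecPDG.

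The differences that turned direction under another setting had not been called. Krt8 in Tuft against Stem went from -0.12 to 0.073 with median ratios, 0.062 with upper quartiles, 0.20 on subtracting background and 0.073 in DESeq2. Krt8 in EEC against Stem went from 0.0099 to -0.083 without the filter and -0.22 with the replicate block. Krt8 in Enterocyte against AbsPro went from -0.47 to 0.0024 with median ratios and in DESeq2, and Krt18 in EEC against SecPDG from -0.67 to 0.0042 in both. Krt19 in Enterocyte against Stem went from 0.21 to -0.15 with the replicate block, and Krt19 in EEC against SecPDG from 0.14 to -0.0020 without the filter and -0.014 with the block. Krt23 in Enterocyte against Stem went from -0.30 to 0.36 with median ratios, 0.26 with library totals, 0.32 with upper quartiles, 0.018 on subtracting background, 0.015 in the fit of 2 types and 0.37 in DESeq2. Krt23 in SecPDG against AbsPro went from -0.17 to 0.026 on subtracting background. The type ratio in Enterocyte against AbsPro went from 0.010 to -0.014 with the longest transcripts and -0.00075 without Krt7.

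On leaving out 1 library at a time, some log2 fold changes that had not been called changed sign. They ranged for Krt7 in EEC against SecPDG from -1.06 to 0.75, Krt8 in EEC against Stem from -1.55 to 0.57, Krt8 in EEC against SecPDG from -1.26 to 0.85 and Krt18 in EEC against Stem from -0.27 to 0.47. They ranged for Krt19 in Enterocyte against Stem from -0.13 to 0.40, Krt19 in EEC against Stem from -2.54 to 0.16, Krt19 in EEC against SecPDG from -1.91 to 0.76 and Krt20 in SecPDG against Stem from -0.34 to 0.082. They ranged for Krt23 in AbsPro against Stem from -1.42 to 0.071, Krt23 in Enterocyte against Stem from -0.79 to 0.13, Krt23 in SecPDG against AbsPro from -0.65 to 0.67 and Krt23 in Enterocyte against AbsPro from -0.35 to 1.13. Ratios that changed sign ranged, for the type ratio in Enterocyte against AbsPro, from -0.044 to 0.064 and the Krt20 ratio in SecPDG against Stem, from -0.36 to 0.27. Differences in distal share that did so ranged, for Krt20 in AbsPro against Stem, from -0.24 to 0.037, Krt7 in AbsPro against Stem, from -0.13 to 0.105, Krt7 in EEC against Stem, from -0.21 to 0.060, Krt8 in Enterocyte against Stem, from -0.071 to 0.019, Krt7 in Enterocyte against Stem, from -0.075 to 0.033, Krt7 in SecPDG against Stem, from -0.037 to 0.033, Krt19 in SecPDG against Stem, from -0.023 to 0.0067, Krt8 in Tuft against Stem, from -0.041 to 0.049 and Krt19 in Tuft against Stem, from -0.032 to 0.0058. For Krt19 in EEC against Stem the share difference kept its sign, from -0.20 to -0.0067. The value of -0.20 sets 1 EEC library against 3 of Stem, with a spread from Stem alone, and is given with no test.

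No pairing by the replicate numbers of the labels was seen: deviations of libraries with the same number had a median r of 0.0020 (range -0.39 to 0.50). Those of other libraries had 0.0075, and 6 of 22 correlated best with their own number. With so few libraries per type this cannot exclude a pairing. Adding the number as a block gave the counts above, ended the call of Krt18 in Tuft against Stem at 1.25 (adjusted p = 0.0224), and moved all-gene calls from 1468 to 1925 there. Over all genes, the main counts of 83, 707, 1468, 3082 and 3197 against Stem (AbsPro, SecPDG, Tuft, Enterocyte, EEC) ranged over the alternatives from 23 to 441, 455 to 1877, 872 to 3835, 1957 to 5590 and 261 to 5708. For SecPDG and Enterocyte against AbsPro and Tuft and EEC against SecPDG, 506, 1159, 205 and 3419 became 279 to 1470, 266 to 5090, 120 to 1689 and 940 to 6270. Median log2 fold changes over all genes averaging 50 or more counts moved between TMM and median ratios from -0.33 to 0.35 in EEC against Stem, from -0.33 to 0.35 in EEC against SecPDG, from -0.13 to 0.07 in Tuft against SecPDG and from -0.09 to 0.11 in Tuft against Stem.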
